A study of Mus musculus with 4 samples.

Results

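The 4 transcripts Uchl1, Snap25, Stmn2 and Thy1, widely used as markers of neurons, were followed in mouse dorsal root ganglia, which hold the cell bodies of sensory neurons next to the spinal cord. They were chosen by transcript identifier: ENSMUST00000031131.11 for Uchl1, ENSMUST00000028727.11 for Snap25, ENSMUST00000029002.9 for Stmn2 and ENSMUST00000114840.2 for Thy1. They are 4 of the 116912 transcripts listed in each table, and all 4 had a mean of 20 or more reads over the libraries, the minimum set for inclusion. Those means were 1835 reads for Uchl1, 655 for Stmn2, 400.2 for Snap25 and 311 for Thy1.

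Bulk RNA came from the whole lysate of ganglia of adult wild-type CD-1 mice, either uninjured or 72 hours after a forceps injury of the sciatic nerve, and was sequenced with a nanopore direct RNA kit. RiboTag RNA came down with an anti-HA antibody from ganglia of adult RPL22HA+/+;Advillin-Cre+ mice (offspring of B6N.129-Rpl22tm1.1Psam/J mice crossed with the strain B6.129P2-Aviltm2(cre)Fawa/J), uninjured or 72 hours after the same injury, and was sequenced with a nanopore cDNA-PCR kit. In these mice Cre under the Advillin gene, which is active in sensory neurons, switches on an HA-tagged ribosomal protein, so RiboTag RNA is RNA held by ribosomes of cells that have expressed Cre. Each of the 4 groups was 1 sample, so differences could not be set against the spread between animals, and the number of animals behind a sample is not given in the sources used here. Bulk and RiboTag RNA differed at once in strain, genotype, immunoprecipitation and library kit, whose parts in any difference between the assays cannot be told apart.

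The proteins made from these transcripts serve different parts of the neuron. Uchl1, also called PGP9.5, is a deubiquitinating enzyme that is very abundant in neuronal cytoplasm and is a standard histological marker of sensory neurons and their fibres. Snap25 is a SNARE protein of the plasma membrane that joins syntaxin and synaptobrevin in the complex that fuses synaptic vesicles. Stmn2, also called SCG10, binds tubulin and promotes microtubule turnover in axons and growth cones, and its protein is a known marker of regenerating sensory axons. Thy1 is a glycoprotein held on the cell surface by a lipid anchor, abundant on neurons and also known on other cells such as mouse T cells and some fibroblasts.

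The bulk libraries held 529332 to 592935 assigned reads and the RiboTag libraries 79334 to 207597, the lowest being injured RiboTag RNA. Each table gave 3 numbered columns per library, whose totals spanned at most 0.203% of their mean. They were averaged and not counted as replicates, so agreement between columns or pairs of columns does not measure spread between samples. Values before and after injury refer to the separate uninjured and injured samples. Intervals are 95% intervals that cover counting error only. A pair of transcripts that are not members took 31.2% of all RiboTag reads before and 40.9% after injury but at most 0.0191% in bulk RNA. Values scaled by the library total therefore move when the pair is left out, and such values are given where this matters. No transcript length entered the deposited values, so levels are given as deposited, in TPM, which here are reads scaled to the same total in every library, and are compared between libraries, not between genes.

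All 4 transcripts were found in every library, and by read number all 4 stood among the 472 most abundant transcripts of each. Uchl1 stood highest, at ranks 9 to 11 in the 4 libraries. Snap25 stood at ranks 93 and 79 in uninjured and injured bulk RNA and at 27 and 54 in RiboTag RNA. Stmn2 stood at ranks 32 and 27 in bulk and 177 and 116 in RiboTag RNA, and Thy1 at ranks 95 and 81 in bulk and 472 and 281 in RiboTag RNA. Thus Snap25 ranked higher in RiboTag than in bulk RNA, Stmn2 and Thy1 ranked lower, and Uchl1 kept its place.

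Uchl1 had 2980, 2971 and 2981 reads in the columns of uninjured bulk RNA and 2930, 2932 and 2820 in those of injured bulk RNA. In RiboTag RNA its columns held 1112, 1136 and 1133 reads without injury and 342, 339 and 343 after it. In bulk RNA this was 5021 TPM before injury (4842 to 5204) and 5467 after it (5270 to 5670). In RiboTag RNA it was 5429 TPM before (5117 to 5754) and 4301 after injury (3855 to 4778). Injured RiboTag RNA was the lowest, uninjured bulk RNA came next with an interval that overlapped that of uninjured RiboTag RNA, and injured bulk and uninjured RiboTag RNA were within each other's intervals.

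Snap25 had 586, 586 and 603 reads in the columns of uninjured bulk RNA and 627, 581 and 649 in those of injured bulk RNA. Its RiboTag columns held 320, 313 and 341 reads without injury and 64.0, 59.0 and 74.0 after it. The bulk level was 998 TPM before (920 to 1082) and 1169 after injury (1079 to 1265). The RiboTag level was 1563 TPM before (1400.0 to 1745) and 828 after injury (644 to 1058). Uninjured RiboTag RNA was the highest, with no column of another library reaching its columns. Injured RiboTag RNA was the lowest, though its interval overlapped that of uninjured bulk RNA.

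Stmn2 had 1197, 1283 and 1223 reads in the columns of uninjured bulk RNA and 1245, 1221 and 1293 in those of injured bulk RNA. Its RiboTag columns held 95.9, 99.0 and 78.7 reads without injury and 45.0, 35.0 and 40.0 after it. Bulk RNA had 2082 TPM before (1967 to 2200) and 2367 after injury (2238 to 2502), and RiboTag RNA 439 before (353 to 538) and 504 after it (360.2 to 687). The bulk levels lay far above both RiboTag levels, and the RiboTag levels lay within each other's intervals.

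Thy1 had 590.0, 583 and 581 reads in the columns of uninjured bulk RNA and 608, 570 and 603 in those of injured bulk RNA. Its RiboTag columns held 42.9, 45.0 and 46.9 reads without injury and 24, 25 and 17 after it, the smallest counts of the 4 transcripts. Its bulk level was 986 TPM before (908 to 1070) and 1121 after injury (1034 to 1216), and its RiboTag level 217 before (158 to 290.0) and 277 after it (174 to 420). As for Stmn2, bulk lay far above RiboTag RNA and the RiboTag intervals overlapped, and for Thy1 the bulk intervals overlapped too.

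**Figure D1:**
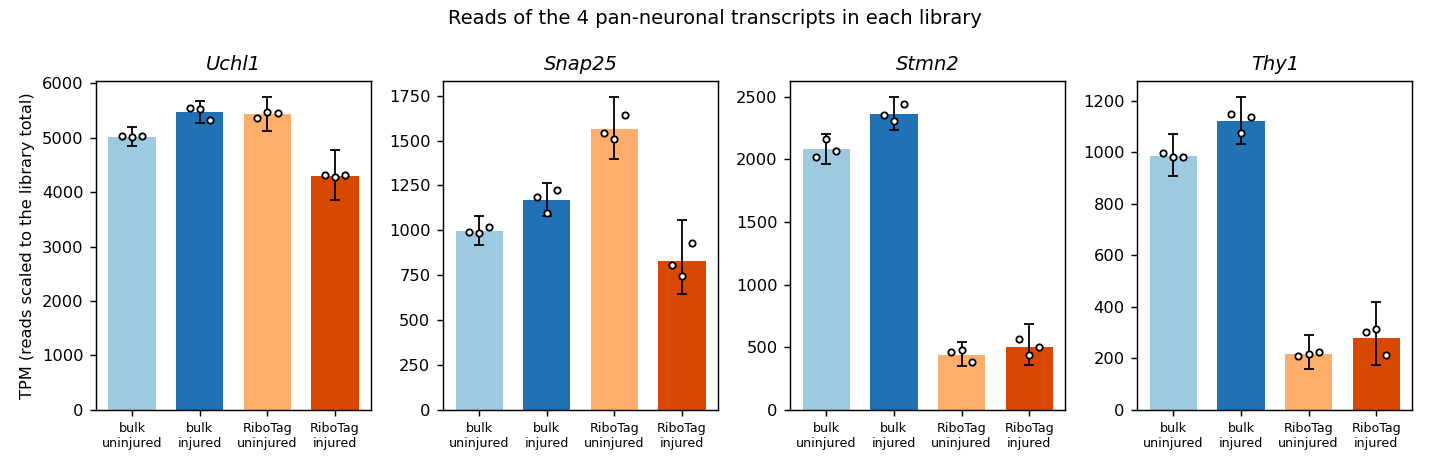
TPM, reads scaled to the library total (vertical axes, each from 0), of Uchl1, Snap25, Stmn2 and Thy1 in the 4 libraries. Bars are means of the 3 columns, circles the columns, and error bars 95% counting intervals. Stmn2 and Thy1 are at 2082 and 986 in uninjured bulk against 439 and 217 in uninjured RiboTag RNA, while Snap25 is highest in uninjured RiboTag RNA at 1563.

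The ratio of RiboTag to bulk RNA was taken as a measure of enrichment in neurons, since the tagged ribosomes are those of sensory neurons. It also carries the differences in strain, genotype, immunoprecipitation and library kit, so a low ratio need not mean depletion from neurons. By that measure the 4 neuronal transcripts did not behave alike. Without injury Snap25 was 1.57-fold higher in RiboTag than in bulk RNA (log2 ratio 0.65, interval 0.45 to 0.85) and Uchl1 1.08-fold higher (0.11, 0.01 to 0.21). Stmn2 was 4.72-fold lower in RiboTag RNA (log2 ratio -2.24, interval -2.57 to -1.94), and Thy1 was 4.51-fold lower (-2.17, -2.66 to -1.75). All 9 pairs of a RiboTag and a bulk column gave the same direction as the mean for each of the 4.

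A transcript was called higher or lower where the ratio was 2-fold or more and its interval excluded no change. Without injury 0 of the 4 were called higher in RiboTag RNA and 2, Stmn2 and Thy1, were called lower. Among all features, 14.5% of 6174 transcripts with 20 or more reads were called higher and 44.1% lower, 58.6% in all. The 2 calls are thus near the share of lower calls over all transcripts. The median log2 ratio was -1.03 over the 4 members and -0.98 over all transcripts tested. Uchl1 stood at percentile 71.5 of all ratios and Snap25 at 80.1, whereas Stmn2 stood at 27.4 and Thy1 at 28.5. Uchl1 and Snap25 thus lay above the median of the transcripts tested and Stmn2 and Thy1 below it, and the 4 do not give a single value as a set. That median depends on the read minimum. It was -1.22 with a minimum of 50 reads and 0.30 with no minimum, the latter above Uchl1 (0.11) and below Snap25 (0.65). Levels of markers of glia, fibroblasts and immune cells, in which Thy1 can also be present, were not analysed here, and their part in the bulk values was not tested.

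After injury Stmn2 and Thy1 were again called lower in RiboTag RNA. Stmn2 was 4.64-fold lower in RiboTag than in bulk RNA (log2 ratio -2.21, interval -2.72 to -1.78) and Thy1 3.96-fold lower (-1.98, -2.70 to -1.40). Uchl1 was 1.27-fold lower (log2 ratio -0.34, interval -0.51 to -0.18) and Snap25 1.40-fold lower (-0.49, -0.88 to -0.12), neither of them called. The background was 7.69% called higher and 36% called lower of 5045 transcripts, with 43.6% called in all and a median log2 ratio of -1.25. The median of the 4 members was -1.24. With no read minimum the median of all transcripts was 0.86.

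These ratios depend on what the totals hold. Without the dominant pair in the totals, the uninjured log2 ratio was 1.19 for Snap25 (0.99 to 1.39), which was then called higher, and 0.65 for Uchl1 (0.55 to 0.75). It was -1.70 for Stmn2 (-2.03 to -1.40) and -1.63 for Thy1 (-2.12 to -1.21). After injury this scaling turned Uchl1 to 0.42 (0.25 to 0.57) and Snap25 to 0.27 (-0.12 to 0.64), and gave -1.45 for Stmn2 and -1.23 for Thy1. The same scaling moved the median of all transcripts by 0.54 without injury and 0.76 after it. It also moved the background, from 894 calls higher and 2723 lower to 1271 and 1955 without injury, and from 388 and 1814 to 679 and 892 after it. The injured ratio of Snap25 was -0.30 with TMM factors (-0.70 to 0.06) and -0.32 with DESeq2 factors (-0.71 to 0.04), intervals that include no difference. Those of Uchl1 under these factors excluded it. Stmn2 and Thy1 were called lower under every scaling tried, namely library totals, totals without the pair, TMM and DESeq2 factors. Their place below Uchl1 and Snap25 cannot change with scaling, which shifts all transcripts of a comparison alike.

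**Figure D2:**
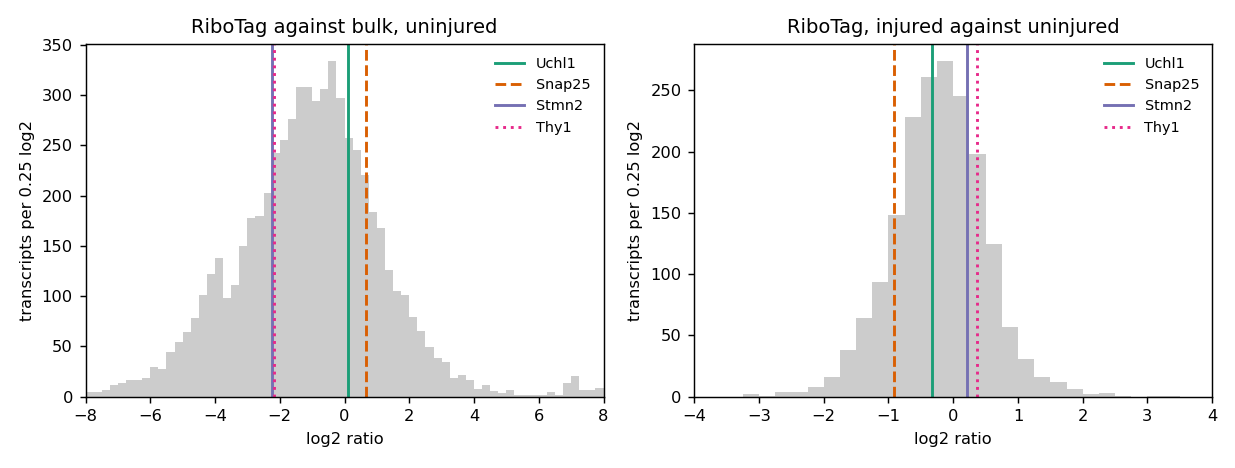
Distribution of log2 ratios of all transcripts tested (grey, transcripts per bin of 0.25) for RiboTag against bulk RNA without injury (left) and for RiboTag RNA after against before injury (right), with lines at the 4 transcripts. On the left Stmn2 and Thy1 stand at -2.24 and -2.17 and Uchl1 and Snap25 at 0.11 and 0.65. On the right Snap25 stands at -0.91, percentile 16. The axes leave out 37 transcripts beyond 8 on the left and 26 beyond 4 on the right.

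Ratios of reads between members of the same library need no scaling and so are untouched by the dominant pair. In bulk RNA Snap25 and Thy1 had nearly equal read numbers, with a ratio of Snap25 to Thy1 reads of 1.01 without injury (0.90 to 1.14) and 1.04 after it (0.93 to 1.17). In uninjured RiboTag RNA that ratio was 7.22 (5.28 to 10.1), and in injured RiboTag RNA 2.99 (1.83 to 5.11). The bulk columns ran from 0.993 to 1.04 before and from 1.02 to 1.08 after injury, and the RiboTag columns from 6.96 to 7.45 before and from 2.36 to 4.35 after it. The ratio was thus much higher in RiboTag than in bulk RNA and lower after injury than before it within RiboTag RNA, with no overlap of columns.

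The other pairs set Uchl1 and Snap25 apart from Stmn2 and Thy1. The ratio of Uchl1 to Stmn2 reads in bulk RNA was 2.41 before (2.26 to 2.58) and 2.31 after injury (2.16 to 2.47). In RiboTag RNA it was 12.4 (10 to 15.5) and 8.53 (6.13 to 12.2). The ratio of Uchl1 to Thy1 reads was 5.09 and 4.88 in bulk and 25.1 and 15.5 in RiboTag RNA. Stmn2 to Thy1 stayed at 2.11 (1.91 to 2.33) and 2.11 (1.91 to 2.33) in bulk and was 2.03 (1.40 to 2.96) and 1.82 (1.06 to 3.21) in RiboTag RNA. The RiboTag to bulk ratios of Stmn2 and Thy1 differed by -0.06 on the log2 scale without injury (-0.59 to 0.48) and by -0.22 after it (-0.98 to 0.55), intervals that include no difference but also allow differences of up to those bounds. Snap25 exceeded Uchl1 in this ratio by 1.45-fold without injury (Uchl1 minus Snap25 -0.54 on the log2 scale, -0.75 to -0.32). After injury the difference of that pair was 0.15 (-0.25 to 0.55).

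**Figure D3:**
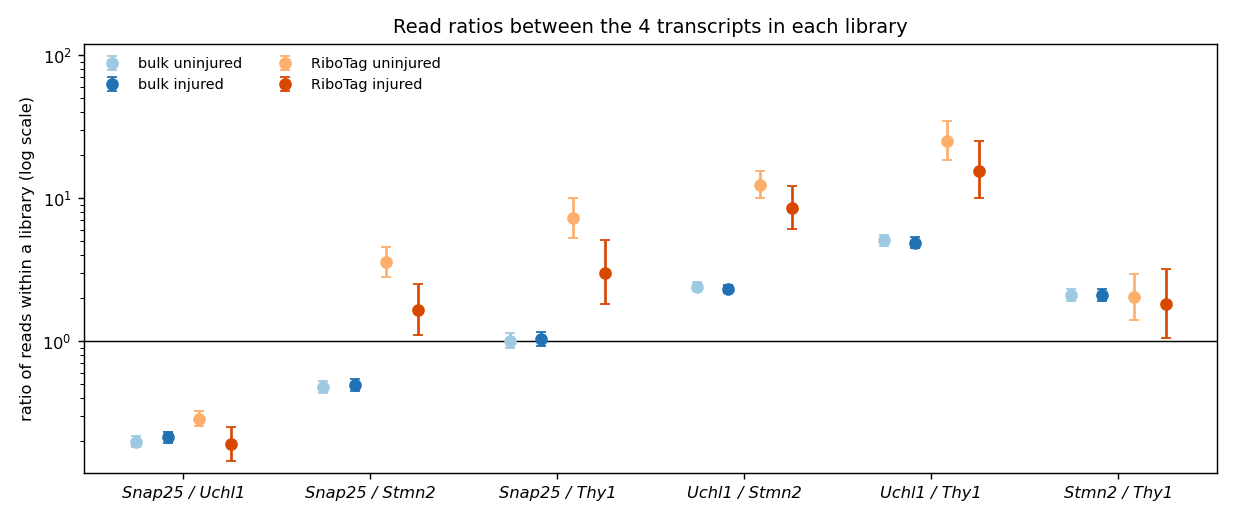
Ratio of the reads of one transcript to those of another within each library (vertical log axis), for the 6 pairs of the 4 transcripts. Points are ratios of the column means and error bars 95% counting intervals. Stmn2 to Thy1 lies between 1.82 and 2.11 in all 4 libraries, whereas Snap25 to Thy1 goes from 1.01 in uninjured bulk to 7.22 in uninjured RiboTag RNA.

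The bulk comparison asked what nerve injury did to these transcripts in the whole ganglion. Each of the 4 was slightly higher after injury, by 1.09-fold to 1.17-fold, and none reached 2-fold. The log2 change was 0.12 for Uchl1 (0.05 to 0.20), 0.23 for Snap25 (0.06 to 0.39), 0.18 for Stmn2 (0.07 to 0.30) and 0.19 for Thy1 (0.02 to 0.35). All 9 pairs of an injured and an uninjured column gave a positive change for each transcript. In all, 0 of the 4 were called, against a background of 9.76% of 7739 transcripts, 5.21% called higher and 4.55% lower. The members' median was 0.19 and that of all transcripts 0.00, and the members stood at percentiles 64.7 to 73.9. In whole ganglia, more or fewer neurons in the sample and more or less RNA per neuron cannot be told apart. Together the 4 took 0.909% of bulk reads without injury (exact binomial interval 0.885% to 0.933%) and 1.01% after it (0.986% to 1.04%).

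The mix of the 4 transcripts in bulk RNA moved little with injury. None of the 6 pairs of members had a difference in bulk change whose interval excluded 0. The differences ran from -0.11 for Uchl1 minus Snap25 (-0.28 to 0.07) to 0.04 for Snap25 minus Stmn2 (-0.15 to 0.24). The share of the members' own reads that was Snap25 was 10.98% without injury and 11.6% after it, and that of Stmn2 was 22.9% and 23.4%.

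In RiboTag RNA Snap25 parted from the other members after injury. Snap25 was 1.88-fold lower (log2 change -0.91, interval -1.32 to -0.53), just under the 2-fold set for a call. Uchl1 was 1.26-fold lower (log2 change -0.33, interval -0.52 to -0.16). Stmn2 had a log2 change of 0.21 (-0.37 to 0.75) and Thy1 of 0.37 (-0.45 to 1.12), intervals that include no change and, for Thy1, also a change of more than 2-fold. All 9 column pairs were negative for Snap25 and for Uchl1, 7 of 9 were positive for Stmn2 and 8 of 9 for Thy1. Again 0 of the 4 were called, where 11% of 1866 transcripts were called over the table, 2.95% as higher and 8.04% as lower. Snap25 stood at percentile 16.0 of all RiboTag changes, Uchl1 at 43.1, Stmn2 at 73.8 and Thy1 at 80.9. The median was -0.06 for the members and -0.21 for all transcripts.

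Scaling mattered for these values as well. Without the dominant pair in the totals the RiboTag change of Snap25 was -0.69 (-1.10 to -0.31) and that of Uchl1 -0.11 (-0.30 to 0.06), the latter including no change, while the median of all transcripts moved from -0.21 to 0.01. The background split of 55 calls higher and 150 lower became 89 and 85 with these totals and 41 and 223 with TMM factors. At library totals it became 60 and 57 with a pseudocount of 5 reads and 239 and 202 with no read minimum. The median of all transcripts was then 0.13 and 0.50. The excess of lower calls thus depends on the scaling, the pseudocount and the read minimum. TMM scaling gave -1.07 for Snap25 and DESeq2 factors -1.03, both then called lower. The direction was the same under every scaling for each of the 4 transcripts.

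Without any scaling, Snap25 was lower after injury in RiboTag RNA relative to each of the other three. Relative to Thy1 its log2 change was -1.27 (-2.10 to -0.45). Relative to Stmn2 it was -1.12 (-1.78 to -0.46). Uchl1 minus Snap25 was 0.58 (0.16 to 1.002). The intervals of the remaining 3 pairs included 0: -0.53 for Uchl1 minus Stmn2 (-1.10 to 0.03), -0.69 for Uchl1 minus Thy1 (-1.45 to 0.06) and -0.16 for Stmn2 minus Thy1 (-1.07 to 0.75). The share of Snap25 in the members' RiboTag reads went from 20.4% (18.5% to 22.5%) to 14.0% (11.1% to 17.6%), while that of Uchl1 was 71.0% and 72.8%.

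**Figure D4:**
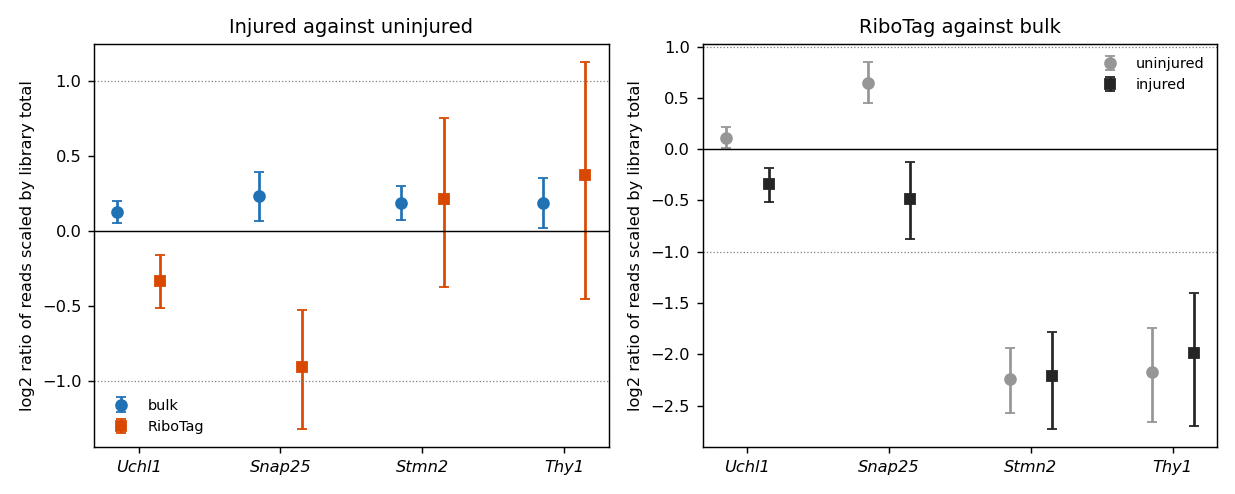
Log2 ratios of reads scaled by library total for the 4 transcripts, after against before injury in each assay (left) and RiboTag against bulk RNA in each state (right). Error bars are 95% counting intervals, the solid line marks no change and dotted lines mark 2-fold. Bulk changes lie between 0.12 and 0.23 for all 4, whereas the RiboTag change is -0.91 for Snap25 and 0.37 for Thy1.

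The last comparison asked whether injury moved the RiboTag to bulk ratio itself, called ribosome association efficiency in the title of the series. The ratio of Snap25 was 2.20-fold lower after injury (log2 difference -1.14, interval -1.55 to -0.72) and was the only one of the 4 called, against 3.61% of 4905 transcripts called lower and 2.63% called higher, 6.24% in all. It stood at percentile 12.5. The ratio of Uchl1 was 1.37-fold lower (-0.46, -0.65 to -0.27), at percentile 33.0. The differences were 0.02 for Stmn2 (-0.52 to 0.57) and 0.19 for Thy1 (-0.56 to 0.94). All 81 combinations of columns were negative for Snap25 and for Uchl1, whereas 44 were positive for Stmn2 and 54 for Thy1. The combinations reuse columns of the same samples, so these counts do not measure reproducibility.

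The call for Snap25 ended without the dominant pair in the totals, where the log2 difference was -0.92 (-1.33 to -0.50). Uchl1 then had -0.24 (-0.43 to -0.05), and the median over all transcripts went from -0.07 to 0.15. The background turned over, from 129 calls higher and 177 lower to 194 and 118, whereas TMM factors gave 95 and 232. Free of scaling, the ratio of Snap25 changed by -1.32 relative to Thy1 (-2.18 to -0.46) and by -1.16 relative to Stmn2 (-1.85 to -0.47). The change for Uchl1 minus that for Snap25 was 0.69 (0.23 to 1.14). Stmn2 minus Thy1 was -0.16 (-1.09 to 0.77). Other cells of the ganglion also contribute to bulk RNA, and the assays differed in strain, genotype, immunoprecipitation and library kit. The ratio is therefore not a measure of ribosome association alone, and the part of each in its change was not tested.

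Together the 4 transcripts took 0.765% of RiboTag reads without injury (0.728% to 0.803%) and 0.591% after it (0.539% to 0.647%). Without the dominant pair these shares were 1.11% and 1.001%, beside 0.909% and 1.01% in bulk RNA. The sum is mostly Uchl1, which held 55.3% of the members' reads in uninjured bulk and 71.0% in uninjured RiboTag RNA.

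Over the 3090 transcripts whose mean reached 20 reads, likeness of profile was measured as the Euclidean distance of log2 levels centred over the 4 libraries. The distance between Stmn2 and Thy1 was 0.19, and that between Uchl1 and Snap25 was 0.46. Between either of Uchl1 and Snap25 and either of Stmn2 and Thy1 it was 2.03 to 2.44. Thy1 was the 17th nearest transcript to Stmn2, and Stmn2 the 15th nearest to Thy1. Uchl1 and Snap25 were less alike, Snap25 being the 189th nearest to Uchl1 and Uchl1 the 83rd nearest to Snap25. Within a distance of 0.25 lay 39 transcripts for Uchl1, 17 for Snap25, 47 for Stmn2 and 37 for Thy1, so none of these profiles belonged to a member alone. The distances carry counting error, with only 40.0 reads for Stmn2 and 22.0 for Thy1 in injured RiboTag RNA. These ranks and counts are therefore approximate.

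The nearest transcript to Snap25 was ENSMUST00000171796.8, at a distance of 0.11. It had 418 TPM before and 453 after injury in bulk RNA, and 592 and 319 in RiboTag RNA. The order of libraries is that of Snap25, which its choice by likeness of profile makes likely. The nearest to Uchl1 was ENSMUST00000218828.2 (0.05), with 196 and 213 TPM in bulk and 218 and 168 in RiboTag RNA, though the last value is 13.4 reads with columns from 8.19 to 19.3. The nearest to Stmn2 was ENSMUST00000102911.10 (0.09) and the nearest to Thy1 was ENSMUST00000102742.11 (0.09), but these had only 1.67 and 1.33 reads in injured RiboTag RNA, so their likeness rests on very few reads. The genes of these transcripts are not named here, since the tables used do not pair transcript identifiers with genes. For the same reason, whether reads of the 4 genes were shared with other transcripts of theirs was not tested.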

How the data were processed

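The deposited tables gave, per the file headers, estimated counts (NumReads, reads assigned to a transcript, not always whole) and TPM in 3 numbered columns for each of the 4 samples. The tools minimap2 and Salmon and the builds GRCm39 and mm39 are named, per the submitters' processing notes. Settings, annotation and the origin of the 3 columns were not given in the sources used here. The deposited TPM equalled the estimated count times a constant with deviations of at most 0.0499% (from 1 read upward), and so carries no transcript length.

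The mean of the columns stood for the sample, and with 1 sample per group no test was made. Log2 ratios were taken after scaling by library totals and adding 0.5 read, with an exact conditional binomial 95% interval from counts rounded to whole numbers, or a normal interval from the counts for differences of log2 changes. Ratios between members had no pseudocount. The background used transcripts with 20 or more reads in the libraries compared, and for the change of the ratio also 5 or more in each assay. Reads carry no molecular identifiers, so intervals cover counting error of reads only. In RiboTag RNA, sequenced with a cDNA-PCR kit, PCR copies of a molecule could not be told apart, so its intervals may be too narrow. Where 0 reads are seen up to 3 are possible, 5.06 to 37.8 TPM depending on the library. The calculations (Python 3.11.15, scipy 1.17.1) were tested on simulated data. edgeR 4.0.16 (TMM) and DESeq2 1.42.0 supplied alternative scaling factors only.

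The named transcripts were the 4 members and the nearest profile of each. Gene names of the members come from the selection rule, since the gene tables used here do not list transcript identifiers. For that reason the lists of other neuronal genes and of cell type markers, and sums over the transcripts of a gene, could not be applied. The members, lists and alternatives were chosen with earlier results of these data known.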

Additional observations from a re-analysis of the deposited data

Results flagged for a closer look

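Snap25 and Uchl1 went opposite ways with injury in the 2 assays, higher in every column pair of bulk RNA and lower in every column pair of RiboTag RNA. With 1 library per group the difference between the assays was not tested against other animals. The RiboTag to bulk ratio of Snap25 changed by -1.14 on the log2 scale (counting interval -1.55 to -0.72), from a bulk change of 0.23 and a RiboTag change of -0.91. That of Uchl1 changed by -0.46 (-0.65 to -0.27), from 0.12 and -0.33. Among all transcripts tested, Uchl1 stood at percentile 43.1 of RiboTag changes and 33.0 of ratio changes, and Snap25 at 16.0 and 12.5. The median RiboTag change of all transcripts was -0.21. With the dominant pair of RiboTag transcripts left out of the totals, the RiboTag change of Uchl1 was -0.11, with an interval (-0.30 to 0.06) that includes no change, and that of Snap25 was -0.69 (-1.10 to -0.31).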

How the results depend on the processing

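Each of the 20 values (4 transcripts in 5 comparisons) was recomputed under 10 alternatives, and 189 of the 200 results kept their direction and their side of the 2-fold rule. That count overstates how far the values were tried. A changed read minimum could not alter a member's value, and summed columns left its ratio almost as it was. Leaving out a column kept columns of the same sample. Snap25 gained a call in RiboTag injury change with TMM (-1.07) and DESeq2 factors (-1.03), and in the uninjured ratio with TMM (1.01) and with totals without the dominant pair (1.19). It lost its call in the ratio change with those totals (-0.92). Those totals also reversed the injured ratio of Uchl1 (0.42) and Snap25 (0.27). The scalings shift all transcripts of a library alike. The ratio change of Stmn2, 0.024, was reversed by TMM (-0.15) and DESeq2 factors (-0.095), and ran from -0.041 to 0.13 when each column was left out in turn, below 0 without column 1 or column 3. Over the whole table, summed columns count the reads of all 3 columns as separate reads, though the origin of the columns is not given. They gave 2071 calls of 12494 tested for bulk injury and 1046 of 4997 for RiboTag injury. For the uninjured and injured ratios they gave 7110 of 11277 and 5130 of 9783, and for the ratio change 1396 of 8884. A minimum of 50 reads, which tests fewer transcripts, gave 316 of 4013 for bulk injury, 86 of 606 for RiboTag injury and 1927 of 2819 for the uninjured ratio. No minimum, which tests more, gave 1582 of 25807 for bulk injury and 441 of 21085 for RiboTag injury. A pseudocount of 5 reads gave 117 for RiboTag injury (60 higher, 57 lower) and 1157 for the injured ratio, and turned the split of the ratio change to 270 higher and 87 lower. No paired analysis was possible because each group had 1 sample. The depth of injured RiboTag RNA limits Thy1 most, with 22.0 reads.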
